A study of Mus musculus with 2 samples.

Results

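The organic ion carriers and ABC transporters were described in embryonic mouse kidney as 91 protein-coding genes of 21474. They were chosen by symbol alone: 25 genes of the Slc22a family, 2 of Slc47a, 14 of Slco, and 50 whose symbol is Abc, a family letter from a to g and a number, with or without a closing letter for a gene copy. Abcb1a, Abcb1b, Abca8a and Abca8b enter by that closing letter. Total RNA was sequenced from kidneys of healthy B6NCrl embryos at embryonic day 15.5, in 2 biological replicate libraries of 1 group, each started from 10 ng of RNA. The replicate 1 library came from the kidneys of 78 embryos and the replicate 2 library from those of 62, with males and females pooled in both. There is no treatment, no other age and no other tissue, so the values below are levels, differences between genes and differences between the pools.

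The kidney clears drugs, toxins and metabolic waste through carriers at both faces of the proximal tubule cell. Carriers of the SLC22 family take up organic anions and cations from the blood side, and MATE proteins and ABC exporters pass them on into the tubule fluid, while OATP proteins, encoded by Slco genes, carry bile acids, steroid conjugates, thyroid hormones and prostaglandins. ABC proteins share an ATP-binding cassette, but not all of them move drugs: ABCE and ABCF proteins act on ribosomes, ABCD proteins lie in peroxisomes and lysosomes, many ABCA proteins move lipids, and ABCC8 and ABCC9 are subunits of potassium channels. The symbol rule therefore gathers more than drug transporters, and the members were sorted into 14 groups by role.

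Levels are TPM, a relative transcript abundance adjusted for length, given for replicate 1 and then replicate 2, or as mean ± SD (n = 2 libraries). The libraries held 36244861 and 39415002 expected counts, which are estimated reads per gene, and the members took 0.171% and 0.174% of them. In whole tissue, fewer cells of a type and less RNA per cell cannot be told apart. The 12 proximal tubule markers summed to 244.8 and 254.6 TPM, and 11 of them reached 1 TPM in both libraries. Markers of other tissues and of other kidney cells were also present, and some lists differed between the pools. The 7 adrenal cortex markers summed to 47.1 and 152.7 TPM, the 9 liver markers to 272.1 and 543.7, the 5 smooth muscle and mesangium markers to 483.7 and 817.9, and the 6 skeletal muscle markers to 312.1 and 165.5. All 7 adrenal, 9 liver and 5 smooth muscle markers were higher in replicate 2, and 0 of the 6 skeletal muscle markers were. Of all detected protein-coding genes, 7360 of 13387 were higher in replicate 2. Direction alone does not set these lists apart. All 7 endothelial, 6 red cell (erythroid) and 5 stroma markers were also higher in replicate 2, with sums 1.06, 1.09 and 1.15 times as high. Endothelial markers summed to 404.5 and 427.6 TPM. The red cell markers summed to 3635.1 and 3961.4, of which the globin gene Hbb-bt held 3554.8 and 3854.9. Stroma markers summed to 1954.1 and 2255.9 TPM, macrophage markers to 138.2 and 149.35, and nerve and glia markers to 50.1 and 69.5. Testis and germ cell markers summed to 1.42 and 1.89 TPM. Which cells held each member's transcripts was not tested.

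The 250 bases upstream of a start site are shown for the leading organic anion carrier and the leading ABCG exporter, from RefSeq on GRCm38.p6. RefSeq listed 73 of the 91 members, with 85 start sites. The Slc22a6 stretch is chr19:8617746-8617995 on the plus strand and ends 43 bases before the gene start in GENCODE M21. The Abcg2 stretch is chr6:58640296-58640545 on the plus strand, far inside the annotated gene, whose first start lies 56023 bases upstream. Stretches at other Abcg2 start sites, 10 and 12149 bases from the gene start, were passed over because they overlap annotated exons. Bases shortly after the printed Slc22a6 stretch were not found in an annotated transcript of that gene. Those after the printed Abcg2 stretch occur in an annotated transcript of Abcg2, but which one was not recorded. The leading transcript, Abcg2-202, held 65.9% and 65.57% of the gene's transcripts in the replicate 1 and 2 libraries. Both are printed in lower case, since none of the words given next occurs in them.
Slc22a6: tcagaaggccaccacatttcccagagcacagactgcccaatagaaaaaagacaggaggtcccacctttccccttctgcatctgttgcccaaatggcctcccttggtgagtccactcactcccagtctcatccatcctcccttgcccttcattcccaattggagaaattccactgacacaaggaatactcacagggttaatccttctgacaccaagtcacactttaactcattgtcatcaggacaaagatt
Abcg2: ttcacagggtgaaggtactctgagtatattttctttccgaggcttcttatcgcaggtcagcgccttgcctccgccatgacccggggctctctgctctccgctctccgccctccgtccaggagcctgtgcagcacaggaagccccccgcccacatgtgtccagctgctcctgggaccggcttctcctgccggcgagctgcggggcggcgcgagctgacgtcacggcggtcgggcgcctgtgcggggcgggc
CAAAGT, the core of an HNF4-type site, was in 14 of the 85 members' stretches and in 12.6% of the 32851 RefSeq stretches of the same length, counting either strand. The longer word CAAAGTCCA, which contains it, was in 0 of the 85, and the TATA box TATAAA in 11 of 85 against 12.4%. The genes to print and the words to search were chosen after matches had been seen. A match is a word in a window, not a measured binding site.

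The members were detected about as often as other protein-coding genes but were less abundant. Of the 91, 56 (61.5%) reached 1 TPM in both libraries, against 62.3% of all protein-coding genes. A mean of 10 TPM or more was reached by 20 members (22.0%), against 41.9% of all. The median of the 41 Slc22a, Slc47a and Slco carriers was 1.97 and 1.83 TPM, or 1.90 ± 0.0990, and that of the 50 ABC members was 2.88 and 2.94 TPM, or 2.91 ± 0.0424. The median over all protein-coding genes was 5.13 and 5.34 TPM. By family, 25 of 41 carriers and 31 of 50 ABC members were detected. The carriers together summed to 179.3 and 194.5 TPM and the ABC members to 679.5 and 691.3 TPM.

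**Figure D1:**
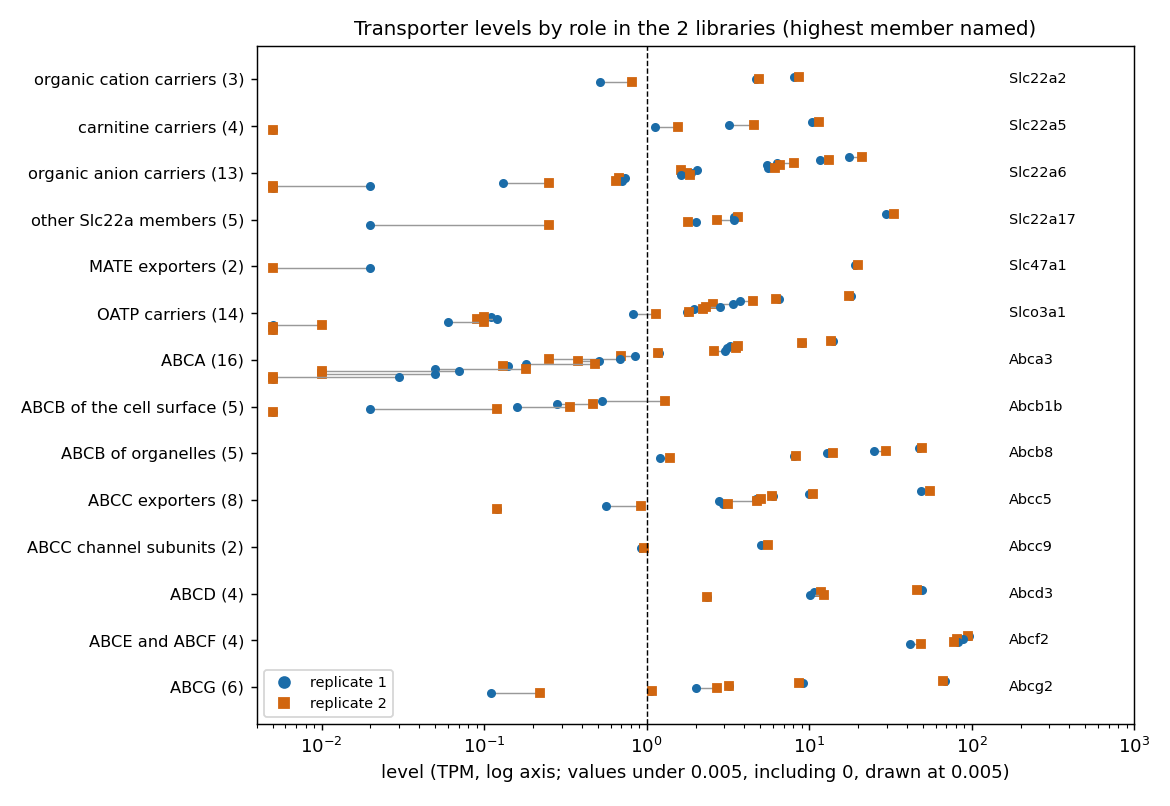
Level of each of the 91 members in the replicate 1 (circles) and replicate 2 (squares) libraries, in TPM on a log axis, by role; the number of members is in parentheses, lines join the 2 libraries, the highest member is named and the dashed line is 1 TPM. All 4 ABCE and ABCF members lie above 40 TPM, while in the group ABCB of the cell surface only the replicate 2 value of Abcb1b passes the line.

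Among the carriers of organic anions, Slc22a6 was the highest. It encodes OAT1, which takes up organic anions from the blood side of the proximal tubule (ENSMUSG00000024650; chromosome 19, 8618039 to 8628299, mm10), and stood at 17.5 and 21.3 TPM. Slc22a12, which encodes the urate exchanger URAT1, followed at 11.7 and 13.3 TPM, and Slc22a13, another urate and nicotinate carrier, at 6.34 and 8.04 TPM. Slc22a8, which encodes OAT3, the partner of OAT1 on the same membrane, was at 5.52 and 6.65 TPM. All 4 were higher in replicate 2, by 1.13 to 1.27 times, which is within the replicate error described below. Of the 13 organic anion carriers 8 were detected. Slc22a19 stood at 5.62 and 6.14 TPM, and Slc22a22, Slc22a30 and Slc22a28 lay between 1.62 and 2.05 TPM in either library. Slc22a29, Slc22a27 and Slc22a26 stayed below 1 TPM in both, Slc22a7, encoding OAT2, had 1 and 0 counts, and Slc22a20 had 0 in both.

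For organic cations, an uptake carrier and an exporter stood well above their close relatives Slc22a3 and Slc47a2, and 2 of the 3 uptake carriers were detected. Slc22a2, which encodes OCT2, the kidney's main cation uptake carrier, was at 8.11 and 8.67 TPM. Slc22a3, the more widely expressed OCT3, was below 1 TPM at 0.52 and 0.81. Slc47a1, which encodes MATE1, the proton exchanger that secretes cations into the tubule fluid, reached 19.2 and 20.1 TPM, while its neighbour Slc47a2 had 1 and 0 counts.

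Among the carnitine carriers, Slc22a5, encoding the high-affinity carrier OCTN2, was at 10.4 and 11.5 TPM. Its neighbours Slc22a21 and Slc22a4 stood at 3.21 and 4.56 TPM and at 1.13 and 1.57 TPM. Slc22a16, a carrier known from testis, had 0 counts in both libraries, and a count of 0 allows up to 3 counts. Of the 5 remaining Slc22a members 4 were detected. Slc22a17, which encodes a receptor for the iron-carrying protein lipocalin 2, was the highest of all 41 carriers at 29.8 and 33.2 TPM. Slc22a18 and Slc22a15 followed at 3.44 and 3.65 TPM and at 3.46 and 2.71 TPM. Slc22a23 stood at 2.01 and 1.81 TPM, and Slc22a14 had 1 and 8 counts.

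Of the 14 OATP genes 7 were detected, and the order within them was steep. Slco3a1, a widely expressed carrier of prostaglandins and thyroid hormone, was at 18.01 and 17.6 TPM. Slco4c1, the OATP of the blood side of the proximal tubule, was at 6.56 and 6.23 TPM, and Slco2a1, the prostaglandin transporter, at 3.77 and 4.50 TPM. Slco1a4 (3.39 and 2.56 TPM), Slco1a6 (2.81 and 2.31), Slco2b1 (1.97 and 2.23) and Slco4a1 (1.78 and 1.83) lay lower. Slco5a1 passed 1 TPM in replicate 2 only, at 0.83 and 1.14 TPM. Slco1b2, the main OATP of liver, was at 0.11 and 0.10 TPM with 2 and 5 counts. Slco1a1 had 0 and 1.01 counts, Slco1c1 was at 0.12 and 0.09 TPM, Slco1a5 at 0.06 and 0.10, and Slco6c1 and Slco6d1 had 0 counts in both.

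The export proteins of the plasma membrane were uneven. Abcg2, which encodes BCRP, an exporter of urate, porphyrins and many drugs at the apical membrane (ENSMUSG00000029802; chromosome 6, 58584523 to 58695676, mm10), was at 69.0 and 66.2 TPM and had the highest level of the ABCG group. The 5 ABCB genes of the cell surface, which include the P-glycoprotein genes Abcb1a and Abcb1b, the phospholipid floppase Abcb4 and the bile salt export pump Abcb11, gave 0 detected members. Abcb1a was at 0.16 and 0.34 TPM, Abcb1b at 0.53 and 1.29, Abcb4 at 0.28 and 0.47, Abcb11 at 0.02 and 0.12, and Abcb5 had 0 counts in both. In the ABCC group 6 of 8 exporters were detected. Abcc5, an exporter of cyclic nucleotides, was at 48.6 and 55.5 TPM, of which only 13.5 and 12.5 lay in complete coding transcripts, Abcc1, the first multidrug resistance protein described in its family, at 10.0 and 10.5, and Abcc4, which exports organic anions and cyclic nucleotides on the apical side, at 6.02 and 5.90. Abcc10 stood at 4.73 and 5.08 TPM, Abcc3 at 2.79 and 4.76 TPM, and Abcc2, the apical exporter of conjugates, at 2.96 and 3.16 TPM. Abcc6 was below 1 TPM in both libraries at 0.56 and 0.92, and Abcc12 was at 0.12 in both.

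Sterol exporters and lipid transporters ranged widely. Abcg1, which moves cholesterol to HDL, was at 9.12 and 8.64 TPM, and Abca1, which loads cholesterol onto apolipoprotein A-I, at 3.14 and 3.57 TPM. The partners Abcg5 and Abcg8 form 1 sterol exporter, yet stood at 3.23 and 3.22 TPM and at 0.11 and 0.22 TPM. Abcg4 was at 2.02 and 2.71 TPM and Abcg3 at 1.07 and 1.08, and 5 of the 6 ABCG genes were detected. Of the 16 ABCA genes 6 were detected: Abca3, which packs surfactant lipid in the lung, at 14.0 and 13.6 TPM, Abca2 of endosomes and lysosomes at 9.10 and 9.05, Abca7 at 3.24 and 3.67, Abca1, Abca5 at 3.04 and 2.61, and Abca9 at 1.19 and 1.17. Abca8a was at 0.69 and 0.25 TPM, Abca8b at 0.51 and 0.38 and Abca6 at 0.18 and 0.48. Abca4, Abca13, Abca14, Abca12, Abca17 and Abca15 were also below 1 TPM in both, and Abca16 had 0 counts in both.

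By gene TPM the 3 highest members, Abcf2, Abce1 and Abcf1, act on ribosomes, and the exporters Abcg2 and Abcc5 came next. In complete coding transcripts alone the order changed: Abcg2, at a mean of 60.1 TPM, exceeded Abcf1 at 52.4. Abcc5, at 13.0 TPM, fell below several members, among them Abcd3 at 47.9, Abcf3 at 31.9 and the carrier Slc22a6 at 19.4. The 4 genes of the ABCE and ABCF group, which act in ribosome recycling and translation, summed to 308.5 and 303.4 TPM. Abcf2 was at 96.2 and 95.4 TPM, Abce1 at 88.3 and 81.6, Abcf1 at 82.4 and 77.9, and Abcf3 at 41.6 and 48.5. All 5 ABCB genes of organelles were detected. Abcb8 and Abcb10 of mitochondria were at 47.2 and 49.3 TPM and at 12.8 and 14.0 TPM, and Abcb6, linked to porphyrins, was at 25.3 and 29.5. The lysosomal peptide transporter Abcb9 was at 1.21 and 1.39. All 4 ABCD genes were detected. Abcd3, the main peroxisomal membrane member, was at 49.6 and 46.3 TPM, Abcd4, which serves cobalamin release from lysosomes, at 10.7 and 11.9, and Abcd2 at 2.35 in both. Of the 2 channel subunits Abcc9 was at 5.08 and 5.56 TPM and Abcc8 at 0.93 and 0.97.

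Detection at the 1 TPM line was close for 17 members, whose mean lay from 0.5 to 2 TPM: 8 below 1 TPM and 9 above. They were Abca4, Abca9, Abcb1b, Abcb9, Abcc6, Abcc8, Abcg3, Slc22a3, Slc22a4, Slc22a22, Slc22a23, Slc22a27, Slc22a28, Slc22a29, Slc22a30, Slco4a1 and Slco5a1.

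Other genes of the pathway are given from lists, beside the 62.3% of all protein-coding genes detected. Among 9 partners that couple ions to the carriers or anchor them at the membrane, 8 were detected, and the sodium-proton exchanger Slc9a3 was not, at 0.80 and 0.86 TPM. They included the sodium pump modulator Fxyd2 at 367.2 and 336.7 TPM and the sodium pump subunit Atp1b1 at 146.9 and 131.9. Of 14 transcription factors that act on such genes 12 were detected, among them Srebf2 at 69.3 and 76.9 TPM and Nr1h2 at 61.0 and 62.8. The kidney and liver factor Hnf4a stood at 15.9 and 15.1 TPM, and the xenobiotic receptors Nr1i2 and Nr1i3 were below 1 TPM. Of 13 other drug and bile acid carriers 8 (near that background) were detected, led by the nucleoside carrier Slc29a1 at 81.4 and 82.4 TPM, the peptide carrier Slc15a2 at 14.7 and 15.2 and Slc17a1 at 7.60 and 7.56. Slc10a1, Slc10a2, Slc15a1, Slc28a1 and Slc28a3 were below 1 TPM in both libraries. The 3 ABC proteins with other symbols, Cftr, Tap2 and Tap1, were all detected at 2.81 to 3.80 TPM.

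Differences between genes were read in 26 pairs as log2(TPM + 1) of the first minus the second. A pair was called where the sign was the same and each library's difference was larger than the limit of replicate error. That limit is the 95th percentile, over detected genes about as abundant as the lower one, of how far replicate 2 lay from replicate 1 in log2 TPM. Of the 26, 18 were called, against 78% of all pairs of protein-coding genes under the same rule, so the count says nothing particular about these genes. Abcb1a minus Abcg2 was -5.92 and -5.65, Slc47a1 exceeded Slc47a2 by 4.31 and 4.40, and Slc22a2 exceeded Slc22a3 by 2.58 and 2.42. Slc22a6 exceeded Slc22a8 by 1.51 and 1.54 and the apical exporter Abcc4 by 1.40 and 1.69. The uptake carrier Slc22a2 minus Slc47a1, the secretion step for cations, was -1.15 and -1.12. Other called pairs were Abcc5 above Abcc3, Abcc1 above Abcc2, Slco3a1 above Slco2a1, Slco4c1 above Slco4a1, Slco1a6 above Slco1a1, Slco1a4 above Slco1c1, Abcg5 above Abcg8, Abcc9 above Abcc8, Abcd3 above Abcd4, Slc22a5 above Slc22a4 and Abcg1 above Abca1. The order did not exceed the error for 8 pairs, among them Slc22a12 and Slc22a13, Abcc2 and Abcc4, Abcb1a and Abcb1b, Abcb4 and Abcb11, Abca8a and Abca8b, Abca2 and Abca3, and Abce1 and Abcf1. For Abcb1a and Abcb1b, Abcb4 and Abcb11, and Abca8a and Abca8b, the levels were too low for this rule to call any difference, since the added 1 TPM holds it under the limit of 0.92. With 0.1 added in its place, Abcb1a minus Abcb1b averaged -1.47, Abcb4 minus Abcb11 1.52 and Abcc2 minus Abcc4 -0.94, and these 3 pairs were called.

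**Figure D2:**
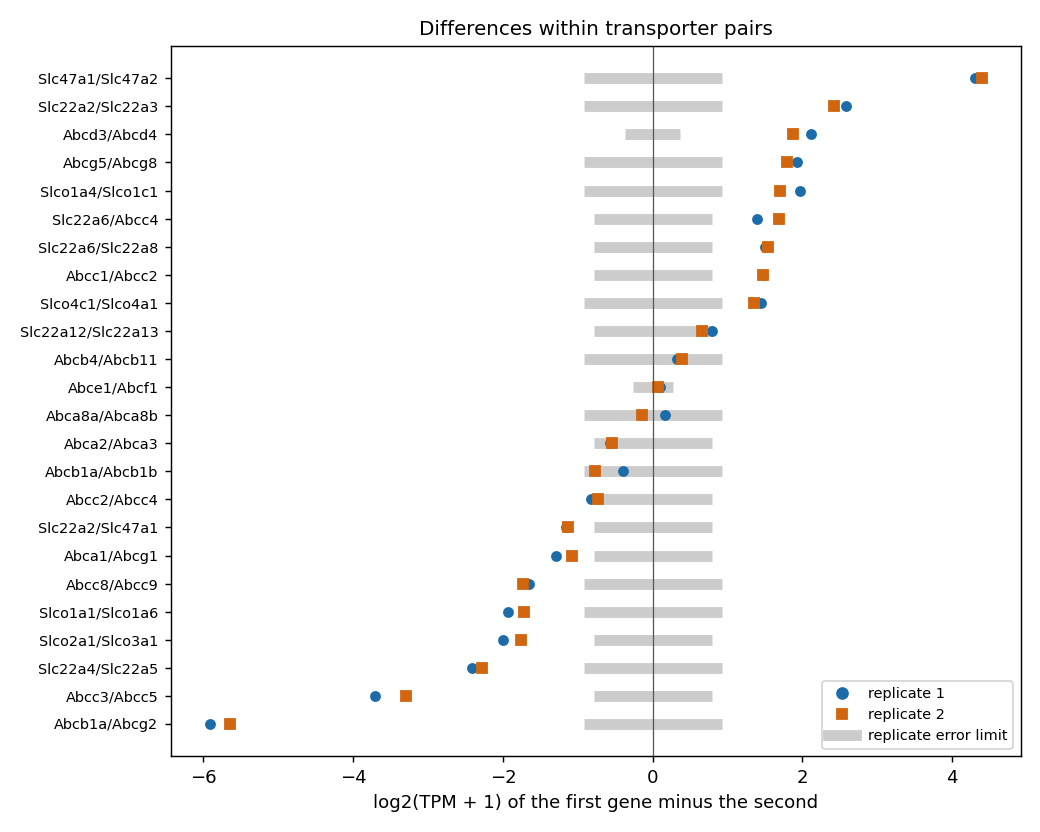
Difference of log2(TPM + 1), first gene minus second, for 24 of the 26 pairs in the replicate 1 (circles) and replicate 2 (squares) libraries; grey bars span the replicate error limit of each pair. The pair of Abcb1a and Abcg2 lies farthest from 0 on one side and Slc47a1 and Slc47a2 on the other, and 7 of the pairs drawn have at least 1 library inside the grey bar.

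Of 52 members with a mean of at least 100 expected counts, 0 differed 2-fold in TPM, against 1.22% of protein-coding genes under the same rule, a background so low that 0 says nothing particular about the members. No p was computed for 2 libraries of 1 group. The median absolute log2 ratio over the 56 detected members was 0.13, or 0.18 for carriers and 0.10 for ABC members, against 0.10 over all detected protein-coding genes. In the same comparison 0 members passed the 95th percentile of replicate error for their level, against 3.97%. The nearest was Abcc3, with a TPM ratio of 1.71 and a CPM ratio, the ratio of counts scaled to library size, of 1.18. Of the 25 detected carriers 17 were higher in replicate 2, as were 18 of 31 ABC members and 7360 of 13387 protein-coding genes.

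At the lower minimum of 20 counts, 4 of 70 members differed 2-fold, against 3.13% of protein-coding genes. Abcb1b, Abcb1a and Abca6 were higher in replicate 2 (background 1.99%) and Abca8a in replicate 1 (background 1.14%). Abcb1b had 55.0 and 144.6 counts, a CPM ratio of 2.42 with an exact interval of 1.77 to 3.37, and its mean of 99.8 lies just under the minimum of 100. Abcb1a had 17.0 and 41.5 counts and a ratio of 2.22 (1.23 to 4.16). Abcb1a and Abcb1b share sequence, as given below, and reads that match several genes are shared out, so their values may be linked. Abca6 had 10 and 45 counts and a ratio of 4.14 (2.06 to 9.21), and Abca8a had 81 and 34 and a ratio of 0.386 (0.251 to 0.583). Intervals are Clopper-Pearson at 95% and cover counting error only. Abcb4 (27.0 and 49.5 counts) and Abcb11 (2 and 15) were also higher in replicate 2. The adrenal cortex sum was 3.24 times and the liver sum 2.00 times as high in replicate 2, and the endothelial sum 1.06 times, and the part of these tissues in the ABCB values was not tested.

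**Figure D3:**
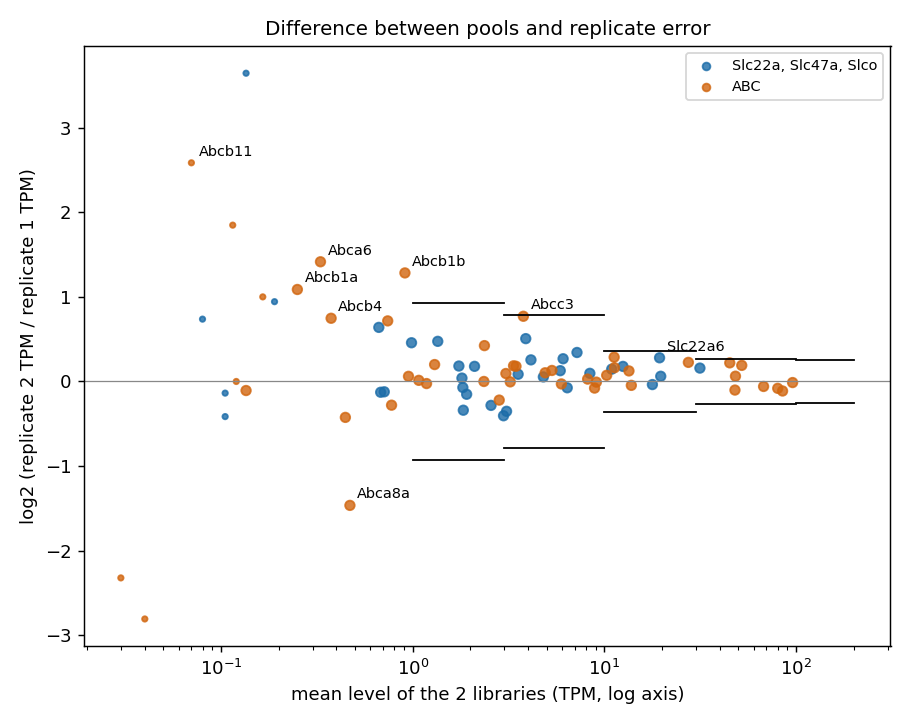
log2 ratio of replicate 2 to replicate 1 TPM against the mean TPM (log axis) of each member with a value above 0 in both libraries; small points have a mean under 20 counts and black lines are the 95th percentile of replicate error in each abundance bin. No detected member crosses a line, and Abcb1b, Abcb1a, Abca6 and Abca8a lie away from 0 at under 1 TPM.

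Many members sit beside other members, grouped here by distance alone, so that some neighbours, such as Abcc10 and Slc22a7, are of different families. Some neighbours differed in level, while others were close, such as Abcc5 and Abcf3 at 52.0 and 45.05 TPM on average. Within 250 kb of another member lay 51 genes in 17 groups, of which 25 were detected, against 31 of the 40 members elsewhere. Of all protein-coding genes 62.3% were detected, and the cause of the difference was not tested. The group on chromosome 19 holds 8 organic anion carriers over 955 kb, of which 5 were detected. Its ends, Slc22a6 and Slc22a8 on one side and Slc22a19 on the other, were the high ones, and the 5 genes between them ranged from 0.19 to 1.83 TPM on average. In the 6 Slco1 genes of chromosome 6 only Slco1a4 and Slco1a6 were detected. The group of Abcb1a, Abcb1b and Abcb4 on chromosome 5 had 0 detected members.

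**Figure D4:**
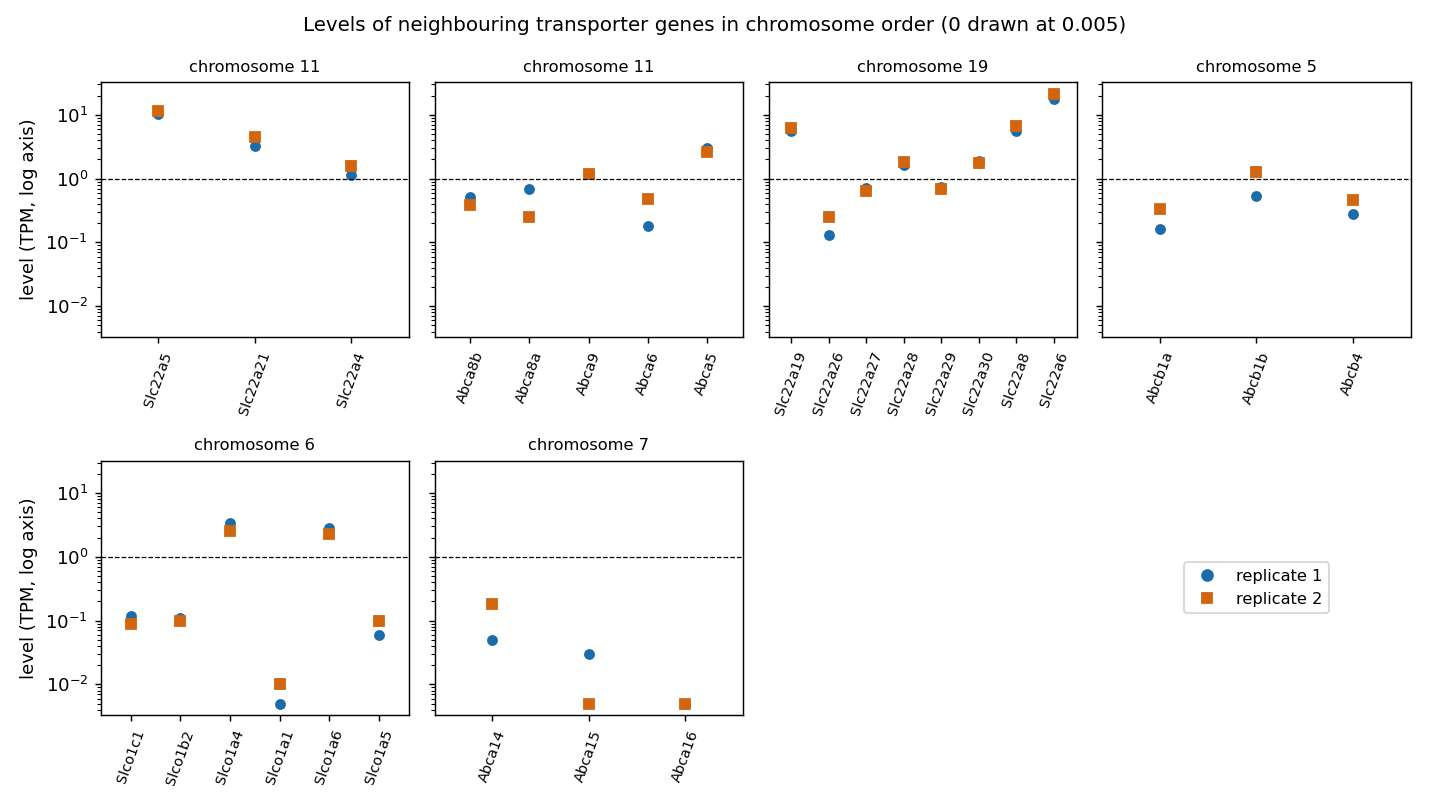
TPM (log axis) of members in 6 of the 7 groups of at least 3 neighbouring genes, in chromosome order, for replicate 1 (circles) and replicate 2 (squares); the dashed line is 1 TPM and 0 is drawn at 0.005. On chromosome 19 Slc22a6, Slc22a8 and Slc22a19 stand above 5 TPM, and the genes between them lie lower.

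Some of these values are uncertain because genes share sequence. At least 10% of the distinct 31-base words of 12 members occur in another gene. For Slc22a28 the share was 68.2%, mostly with Slc22a30, and Slc22a30, Slc22a27 and Slc22a29 shared 42.9% to 46.9%. Slc22a13 shared 41.5% with a pseudogene, Slc22a5 and Slc22a21 shared 37.8% and 30.8% of theirs, and Abcb1a and Abcb1b 23.3% and 16.0%. Abcb6 shared 52.1% with Gm29253, whose exons it overlaps on the same strand, and 30.1% of the exonic bases of Slc22a12 lie under exons of Nrxn2 on the opposite strand. Slco1a6 and Slc22a26 were the others.

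The transcripts behind a gene's value were mostly coding. The same transcript led in both libraries in 53 of the 56 detected members. Of the 43 with several transcripts it was 40, against 91.9% of all such genes. Abca5, Abcc3 and Slc22a4 had different leading transcripts. A median of 93.1% of a detected member's TPM came from transcripts with a complete coding sequence, against 95.9% for all. In 2 members the share was under 50% in both libraries, against 10.8% of genes. In Abcc5 it was 27.8% and 22.6%, and its leading transcript was not matched in M21. In Slc22a15 it was 29.5% and 32.1%, and its leading form, Slc22a15-202, is annotated as a processed transcript. Counted by complete coding transcripts alone, 52 members were detected (background 60.2%), and Abcb9, Slc22a15, Slc22a4 and Slco4a1 fell below the line. Slc22a6, Slc22a17, Abce1, Abcf2 and Abcd3 had 1 annotated transcript each in the table.

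**Figure D5:**
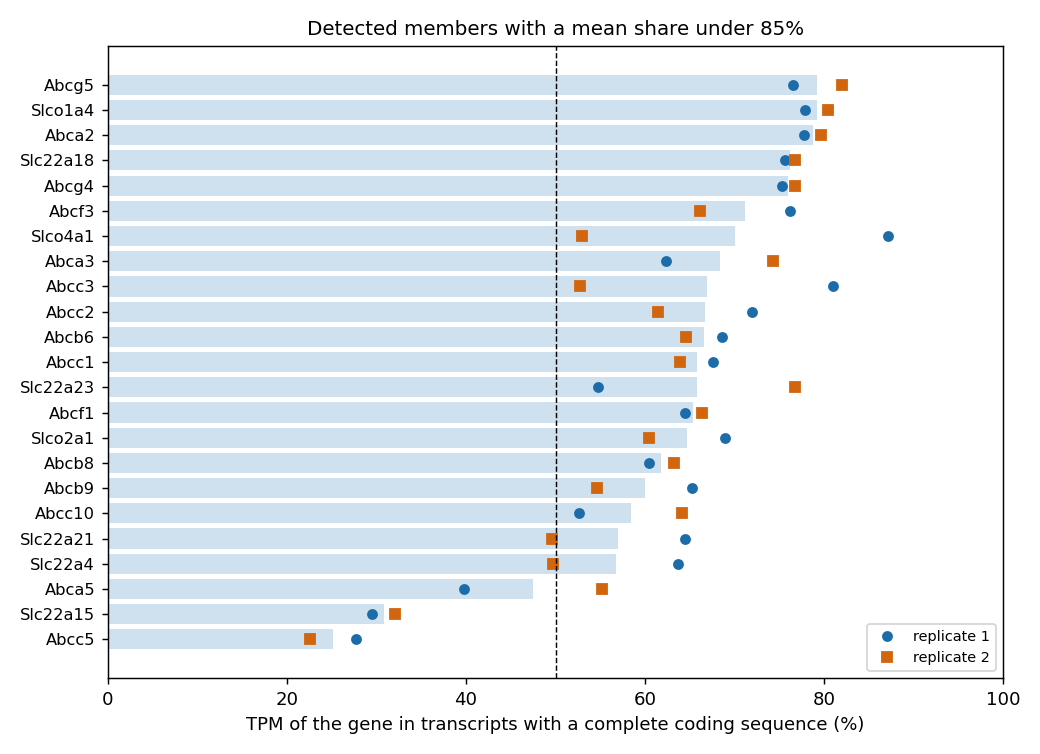
Percent of a gene's TPM in transcripts with a complete coding sequence, for the detected members whose mean share was under 85%; bars are the mean of the 2 libraries, circles replicate 1 and squares replicate 2, and the dashed line is 50%. Abcc5 and Slc22a15 lie below the line in both libraries.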

How the data were processed

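The libraries were made from total RNA longer than 200 nt, per the labels. The authors' reads were aligned to mm10 and quantified with GENCODE M4, per the text files beside the tables. No aligner, quantifier or strand setting is given in the sources used here. Values of genes that overlap another gene, on either strand, are therefore uncertain. Expected counts, as deposited, are estimates of reads per gene, with reads that match several genes shared out. The deposited TPM values are scaled to the same sum in each library, and the deposited FPKM values served as an alternative. The percent of a gene's abundance held by each transcript was deposited by the authors. Gene names and classes were taken from GENCODE M21, also on that build, and 42462 of 43346 gene identifiers (98.0%) matched.

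Members, lists, pairs and thresholds were chosen with earlier results of these data known, and the coding-sequence, shared-word, exon-overlap, neighbour and promoter measures after values were seen. Named are the 3 highest members of each role, both genes of each pair, members that differed between pools and the 3 highest genes of each partner list. Other members are given by name, range or value, and tissue marker lists by their sums. Some genes, pairs and sequence words that fall under these rules are not reported here. Detection needed 1 TPM in both libraries. A pool difference needed a mean of 100 counts and a TPM ratio of 2. Pair limits were set in bins of mean TPM (edges 1, 3, 10, 30 and 100), and a lower gene under 1 TPM was held to the lowest bin. TMM factors (edgeR 4.0.16) came from genes with at least 10 counts in both libraries and size factors (DESeq2 1.42.0) from all genes, with expected counts rounded to whole numbers. No count model was fitted. Only the pool-difference and pair rules were tested on simulated data, with noise that was not fitted to these libraries. The pair check set a gene against itself or a multiple of itself, so it says little about real pairs. Python 3.11.15, pandas 2.3.3 and R 4.3.3 were used. Total depth was 36244861 and 39415002 counts, and the libraries differed beyond sampling noise (chi-square per degree of freedom 12.2). They are biological replicates per the labels.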

Additional observations from a re-analysis of the deposited data

How the results depend on the processing

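The number of members detected lay between 52 and 64 under 0.5 TPM, FPKM, TPM rescaled over protein-coding genes, each library alone (56 to 58), Abc symbols without a closing letter and, added after seeing the data, complete coding transcripts. At 5 TPM it was 30 (11 carriers, 19 ABC members). Each library alone gave 25 to 26 carriers and 31 to 32 ABC members. The median of carriers and of ABC members was 1.28 and 1.95 by FPKM, 2.32 and 3.55 by rescaled TPM, and 4.17 and 8.87 over detected members. Each library alone gave 1.83 to 1.97 and 2.88 to 2.94 TPM. Without the closing-letter genes the ABC median was 3.24. Members that differed between pools numbered 0 by CPM ratios with TMM or DESeq2 factors, by FPKM and at a ratio of 3. They numbered 1 at a ratio of 1.5 (Abcc3), 4 at 20 counts and 14 with no filter. Called pairs numbered 18 to 21 under all 5 alternatives, and none of the 18 lost its call. Slc22a12 and Slc22a13 were also called by FPKM and in replicate 1 alone, Abcc2 and Abcc4 with a pseudocount of 0.1, with error over all genes and in replicate 1 alone, and Abcb1a and Abcb1b and Abcb4 and Abcb11 with a pseudocount of 0.1; replicate error over all genes with a count used log2(TPM + 1), and single libraries kept the limits of both. The difference of Abca8a and Abca8b, 0.0099, turned to -0.041 with a pseudocount of 0.1 and ranged from -0.14 in replicate 2 alone to 0.16 in replicate 1 alone; the cause was not tested. With 2 libraries of 1 group, low counts limit the members below 1 TPM most. No paired analysis was possible because there is only 1 group.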
